A study of Mus musculus with 55 samples.

Results

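Genes of cholesterol and fatty acid synthesis were followed in 2 count tables of mouse axial progenitors, the cells from which the trunk and tail are laid down. The set is a list of 31 genes taken by symbol, 17 of the sterol branch and 14 of the fatty acid branch, and all 31 were present in both tables, among 15807 genes in the table of epiblast stem cells (EpiSCs) and 14602 in the table of tailbuds. The study addresses how the Cdx transcription factors and T act on growth signalling in these progenitors, and it counted transcripts by CEL-seq, which reads the 3′ end of each polyadenylated transcript, from 10 ng of total RNA. EpiSCs are pluripotent cells kept in culture from the epiblast of the early embryo; these came from pre-streak embryos, were first grown on mouse embryonic fibroblasts and then without them on fibronectin in Fgf-basic and Activin A. WT cells and Null cells were each sampled at 0h, with the Wnt secretion inhibitor IWP2 in the medium, and at 24h, after IWP2 was withdrawn and 3 µM Chiron (CHIR99021, an activator of Wnt signalling through Gsk3) and 120 ng/ml Fgf8 were added. The culture text of the Null cells calls the embryos CdxKO but also speaks of Wnt3 null EpiSCs being genotyped, so what Null stands for is not settled by the labels. The 4 EpiSC groups hold 2 libraries each. The 3 tailbud groups, WT, Cdx1-4 and Triple, hold 3 libraries each, taken from the microdissected tailbud of E8.0 embryos. Not given in the labels are the alleles behind Null, Cdx1-4 or Triple, the number of cell lines, whether tailbuds were pooled, or whether replicates were separate cultures or animals, so p-values measure only the spread between these libraries. No group was kept untreated for 24h, so the added Chiron and Fgf8, the loss of IWP2 and time in culture cannot be told apart.

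Cholesterol is built from acetyl-CoA through mevalonate, isoprenoid units, squalene and lanosterol. The transcription factor encoded by Srebf2 drives most genes of this route; it is held in the endoplasmic reticulum by Scap and the Insig proteins when sterols are plentiful and is released when they run low. Fatty acids start from the same acetyl-CoA, which Acly makes from citrate, Acaca carboxylates and Fasn joins into palmitate; elongases of the Elovl family with the reductase Tecr then lengthen the chain, desaturases (Scd1, Scd2, Fads1, Fads2) add double bonds, and Srebf1 is the main regulator. In embryos cholesterol is also needed for the modification of Hedgehog proteins, and mutations of late sterol enzymes cause malformation syndromes.

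Values below are CPM, that is counts scaled to a common library total. Differences are on the log2 scale. Their standard error (SE) is derived from edgeR's test, as the size of the difference divided by the square root of the F statistic. A gene was called, and is said to rise or fall, when its p, adjusted over every gene tested in that table, fell below 0.05. EpiSC libraries held 1114055 to 2914870 counts and tailbud libraries 389601 to 854852. All 31 members passed the filter on low counts in EpiSCs and 23 of 31 did in tailbuds. Of 8 epiblast markers 6 were tested and all 6 fell by 24h in both genotypes, while 8 of 8 streak and tailbud markers rose in both; the summed streak markers went from 100.1 to 109 CPM to 951 to 1277 CPM in WT and from 37.0 to 49.9 CPM to 1428 to 1482 CPM in Null, and their part in the changes at 24h below was not tested. At 0h Null cells held more summed epiblast markers (1717 to 2014 CPM) than WT cells (1130.1 to 1196 CPM) and less of the 8 fibroblast markers (102 to 119 CPM against 209 to 255 CPM), of which Lox was at 0 in all 4 of these libraries and Lum in the Null libraries. In EpiSCs no library held more than 30.3 CPM of Cdx1, Cdx2 or Cdx4, and since the deleted parts are not given, 3′ counts there check nothing about the Null label. In tailbuds Cdx4 was at 40.3 to 48.0 CPM in WT and at 0 to 1.38 CPM in the other groups. Cdx1 was at 153 to 217 CPM in WT, 44.2 to 81.1 CPM in Cdx1-4 and 54.4 to 112 CPM in Triple. Cdx2 was at 174 to 269 CPM in WT, 173 to 268 CPM in Cdx1-4 and 87.1 to 117 CPM in Triple. It is also among the 8 streak and tailbud markers above. In whole cultures and tailbuds, fewer cells of a type and less RNA per cell cannot be told apart.

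In the sterol branch the 24h treatment went with a broad fall. The members and gene lists were chosen with earlier results of these data known. Counts set beside shares of all genes, here and below, therefore give no independent support. Of 17 members, 11 fell and 0 rose in WT cells, where 8.63% of all tested genes fell, 8.19% rose and 16.8% changed in either direction; the median difference was -0.81 against -0.0083 over all genes. In Null cells 9 of 17 fell and 0 rose, where 9.44% of all genes fell, 9.18% rose and 18.6% changed, with a median of -0.47 against 0.01. All 9 members that fell in Null cells (9 of 9) were among the 11 that fell in WT cells (9 of 11), and the remaining 2 were Cyp51 and Nsdhl. The summed sterol branch was 3518 and 3637 CPM in the WT libraries at 0h and 1919 and 2072 CPM at 24h, a mean that came to 55.8% of the 0h mean. In the Null libraries it was 3117 and 3156 CPM at 0h and 1873 and 1909.6 CPM at 24h, or 60.3%. Every 24h library was below every 0h library. Among single members, the 24h libraries all lay below the 0h libraries for 12 of 17 and above for 0 in WT, where 27.1% and 26.8% of all genes did so, and for 13 and 1 of 17 in Null, where 28.7% and 29.1% did.

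**Figure D1:**
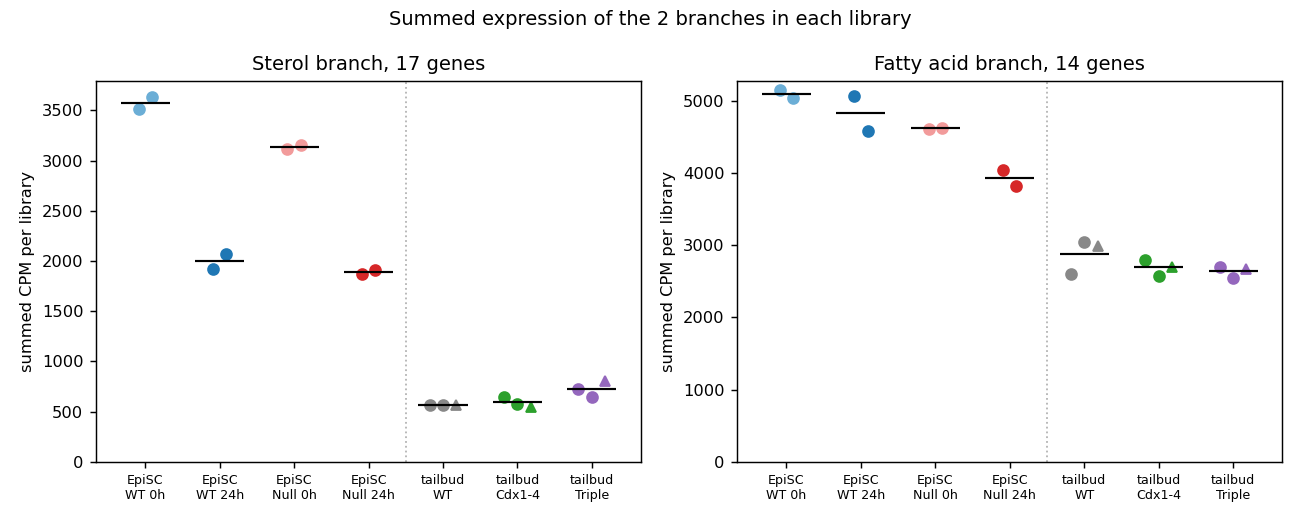
Summed CPM of the 17 sterol branch genes (left) and the 14 fatty acid branch genes (right) in each library, by group; each point is a library (triangles: libraries whose column is named green), each bar the group mean, and the dotted line separates 2 tables that were normalised apart. The sterol sum at 24h lies between 1873 and 2072 CPM in both genotypes, below the 0h libraries, while the fatty acid sums of WT cells at 0h and 24h overlap.

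The 250 bases before the start of 4 sterol genes that fell in both genotypes are shown, because members of the branch moved together (the 4 of these 9 genes for which the table lists a single start), and those before Tecr because it was lower in Null cells at both times and in both mutant tailbud groups. They are from RefSeq (GRCm38.p6), 5′ to 3′ on the gene's strand, with capitals marking CCAAT, the motif of the factor NF-Y, in either orientation (so also ATTGG), and TCACNCCAC, a sterol response element to which Srebf proteins bind. The windows are Hmgcs1 at chr13:119690101-119690350, plus strand, Idi1 at chr13:8885356-8885605, plus strand, Lss at chr10:76531355-76531604, plus strand, Insig1 at chr5:28071162-28071411, plus strand, and Tecr at chr8:83594492-83594741, minus strand.
Hmgcs1: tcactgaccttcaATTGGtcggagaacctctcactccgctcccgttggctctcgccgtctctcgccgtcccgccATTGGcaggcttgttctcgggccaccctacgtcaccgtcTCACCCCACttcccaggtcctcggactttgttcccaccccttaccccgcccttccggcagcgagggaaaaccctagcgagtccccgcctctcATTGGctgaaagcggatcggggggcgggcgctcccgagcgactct
Idi1: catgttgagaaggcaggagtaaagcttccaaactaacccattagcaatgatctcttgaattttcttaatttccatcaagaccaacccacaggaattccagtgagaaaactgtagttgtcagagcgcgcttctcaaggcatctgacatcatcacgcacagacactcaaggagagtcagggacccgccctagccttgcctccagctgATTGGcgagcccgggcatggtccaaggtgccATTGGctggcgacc
Lss: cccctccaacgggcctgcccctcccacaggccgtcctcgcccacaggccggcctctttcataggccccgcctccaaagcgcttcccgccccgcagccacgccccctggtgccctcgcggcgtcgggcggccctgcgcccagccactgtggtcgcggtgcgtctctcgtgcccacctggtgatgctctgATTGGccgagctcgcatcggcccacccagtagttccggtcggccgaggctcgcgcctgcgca
Insig1: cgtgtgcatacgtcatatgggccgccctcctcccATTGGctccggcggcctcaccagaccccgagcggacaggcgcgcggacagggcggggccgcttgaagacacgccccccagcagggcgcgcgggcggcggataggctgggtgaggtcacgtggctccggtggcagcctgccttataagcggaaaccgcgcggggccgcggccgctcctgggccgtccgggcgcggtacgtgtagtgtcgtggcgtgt
Tecr: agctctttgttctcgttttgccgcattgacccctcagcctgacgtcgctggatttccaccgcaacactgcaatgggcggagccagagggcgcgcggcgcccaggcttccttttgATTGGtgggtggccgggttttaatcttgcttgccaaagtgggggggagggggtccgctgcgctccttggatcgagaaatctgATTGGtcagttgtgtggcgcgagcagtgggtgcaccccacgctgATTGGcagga
The table of promoters matched 24 of 31 members, 14 of the sterol and 10 of the fatty acid branch. Searched on both strands in the 250 bases before any listed start, CCAAT was found for 14 of 14 sterol genes and 5 of 10 fatty acid genes, against 37.5% of 27025 genes. Hmgcs1 and Tecr each hold 3 copies, Idi1 holds 2, and Lss and Insig1 hold 1 each. Sterol members that were not called at 24h hold copies too. Mvk, Hsd17b7, Ebp and Mvd hold 5, 3, 2 and 2, and Sc5d and Srebf2 hold 1 each. GGGCGG, the core of an Sp1 motif, was found for 13 of 14 sterol and 6 of 10 fatty acid genes, against 35.4%. TCACNCCAC was found for Hmgcs1 alone, at base -137 counted from the start, against 1.22% of genes. These are matches of letters within these windows and do not show binding.

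Of the 6 listed enzymes that lead from acetyl-CoA to isoprenoid units, 4 fell in both genotypes. Hmgcs1, which makes HMG-CoA, was at 1259 and 1259.9 CPM in the WT libraries at 0h and at 633 and 613 CPM at 24h, and at 1049.6 and 971 CPM and 505 and 498 CPM in the Null libraries. All 4 libraries at 24h were far below all 4 at 0h, and the fall was 1.01 ± 0.09 in WT (SE, n = 2; edgeR adjusted p = 3.4e-10) and 1.01 ± 0.10 in Null (5.29e-10). Pmvk, phosphomevalonate kinase, went from 65.8 and 64.3 CPM to 35.2 and 35.7 CPM in WT and from 82.1 and 62.3 CPM to 37.7 and 45.5 CPM in Null. Its groups did not overlap in either genotype, with differences of -0.88 ± 0.18 (edgeR adjusted p = 0.000626) and -0.83 ± 0.19 (0.00149), and the Null call was lost without Null 0h replicate 1 (0.126) or without Null 24h replicate 1 (0.0594).

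Idi1, the isomerase that makes the reactive isoprenoid unit, was at 40.1 and 39.9 CPM in WT cells at 0h and 13.2 and 19.1 CPM at 24h, against 36.0 and 45.2 CPM and 21.3 and 22.7 CPM in Null cells. It differed by -1.36 ± 0.24 in WT (edgeR adjusted p = 5.25e-05) and by -0.87 ± 0.24 in Null (0.00973; 0.124 with DESeq2, 0.0903 without Null 24h replicate 1 and 0.112 without Null 0h replicate 2). Fdps, farnesyl diphosphate synthase, was at 343 and 434 CPM and 160.1 and 207 CPM in WT and at 368 and 444 CPM and 186 and 197 CPM in Null. It was lower in each 24h library than in any 0h library, by 1.10 ± 0.13 in WT (edgeR adjusted p = 6.78e-08) and 1.08 ± 0.13 in Null (1.44e-07).

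The 3 enzymes that commit isoprenoids to sterols fell in both genotypes. Fdft1, squalene synthase, was at 454 and 425 CPM in WT at 0h and 208 and 205 CPM at 24h, and at 348 and 331 CPM and 171 and 172 CPM in Null. Its replicates lay close together, and the fall was 1.09 ± 0.11 in WT (edgeR adjusted p = 1.69e-09) and 0.99 ± 0.12 in Null (4.75e-08). In RefSeq Fdft1 overlaps Ctsb, a cathepsin gene, which rose by 0.80 ± 0.13 and 0.65 ± 0.14 in the same comparisons; whether the counting used strand is not given in the sources used here.

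Sqle, the epoxidase that acts on squalene, was at 276 and 298 CPM and 148 and 168 CPM in WT and at 256 and 283 CPM and 151 and 169.8 CPM in Null. The fall was 0.87 ± 0.12 in WT (edgeR adjusted p = 1.29e-06) and 0.75 ± 0.13 in Null (2.88e-05), with no overlap. Lss, which closes the ring to lanosterol, was at 38.5 and 32.5 CPM and 16.7 and 17.9 CPM in WT and at 35.4 and 49.7 CPM and 13.4 and 19.4 CPM in Null. Each 24h library held less Lss than each 0h library, with differences of -1.05 ± 0.24 (edgeR adjusted p = 0.00196; 0.0673 with DESeq2) and -1.38 ± 0.26 (0.000177).

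Of the 6 listed enzymes after lanosterol, 3 fell in WT and 1 in Null. Cyp51, the demethylase that acts first on lanosterol, was at 494 and 538 CPM and 319 and 410.1 CPM in WT and at 415 and 481 CPM and 362 and 376 CPM in Null. The 24h libraries were the lower ones in both genotypes, by 0.51 ± 0.11 in WT (edgeR adjusted p = 0.00133). Without WT 24h replicate 1 the WT difference was -0.32, and the call was lost. The Null difference of -0.28 ± 0.12 did not pass (edgeR adjusted p = 0.104), but it did with a block for replicate number (0.0312). Nsdhl, a dehydrogenase of the same stretch, was at 182 and 196 CPM and 108 and 138 CPM in WT and at 159.9 and 169.9 CPM and 138 and 152 CPM in Null. Its groups were apart in both genotypes, but only the WT difference passed, -0.64 ± 0.13 (edgeR adjusted p = 0.000533; 0.0585 without WT 24h replicate 1) against -0.19 ± 0.14 (0.404). The difference between the genotypes in this response was 0.23 ± 0.16 for Cyp51 (edgeR adjusted p = 0.69) and 0.46 ± 0.19 for Nsdhl (0.381), and neither passed.

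Dhcr7, the last reductase before cholesterol, was at 71.7 and 70.0 CPM and 43.2 and 36.4 CPM in WT and at 75.8 and 58.7 CPM and 34.2 and 22.1 CPM in Null. It fell in both, by 0.81 ± 0.19 (edgeR adjusted p = 0.00176) and 1.24 ± 0.21 (4.13e-05). The remaining sterol enzymes did not pass in either genotype, and their group means lay between 22.2 and 50.2 CPM: in WT and Null, Mvk differed by -0.03 and -0.19, Mvd by -0.13 and -0.30, Hsd17b7 by -0.25 and 0.07, Sc5d by -0.50 and -0.25, and Ebp by 0.14 and 0.46. These act in the mevalonate steps (Mvk, Mvd) or on the late sterol intermediates, so members of both the early and the late stretch were without a call.

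Of the 2 regulators, Insig1, which retains the Srebf proteins in the endoplasmic reticulum and is itself one of their targets, was at 99.5 and 96.8 CPM and 62.3 and 44.7 CPM in WT and at 111 and 94.0 CPM and 79.8 and 67.5 CPM in Null. The 24h libraries were again the lower ones, by 0.84 ± 0.16 in WT (edgeR adjusted p = 0.00029) and 0.47 ± 0.17 in Null (0.0441). The Null call lay near the threshold and was lost under 6 of 13 alternatives, with DESeq2 (0.253) and without any one of 5 libraries, among them each Null library except 0h replicate 2 (0.0638 to 0.371) and each WT library at 0h (0.0532 and 0.0533). Srebf2 itself was counted at 8.56 and 6.83 CPM at 0h and 11.1 and 6.38 CPM at 24h in WT and at 8.85 and 2.71 CPM and 6.44 and 12.7 CPM in Null. These overlap, and no difference was detectable at this depth (edgeR adjusted p = 0.76 and 0.509).

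**Figure D2:**
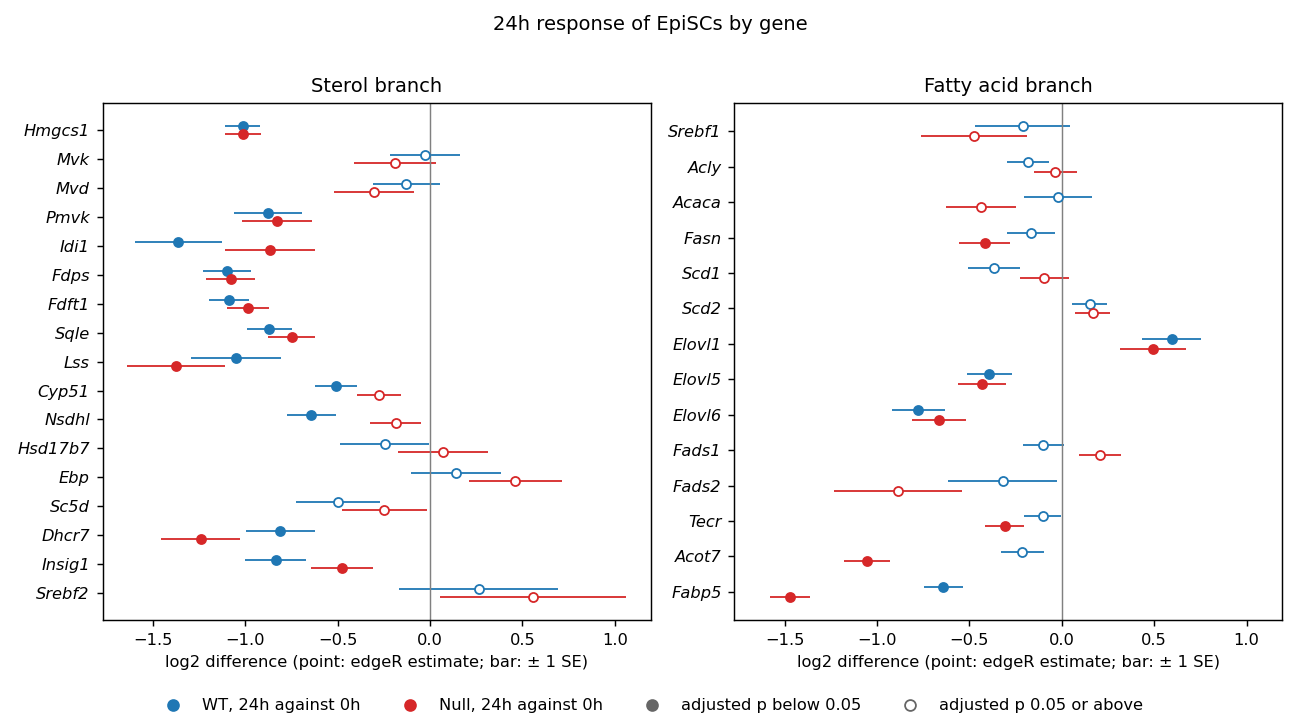
log2 difference between 24h and 0h for each sterol branch gene (left) and fatty acid branch gene (right) in WT cells (blue) and Null cells (red); points are edgeR estimates, bars ± 1 SE, and filled points passed an adjusted p of 0.05. From Hmgcs1 at -1.01 in both genotypes to Lss at -1.05 and -1.38, the filled sterol points all lie to the left, whereas the fatty acid panel holds Elovl1 on the right (0.60 and 0.49) and Fabp5 farther left in Null (-1.47) than in WT (-0.64).

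**Figure D3:**
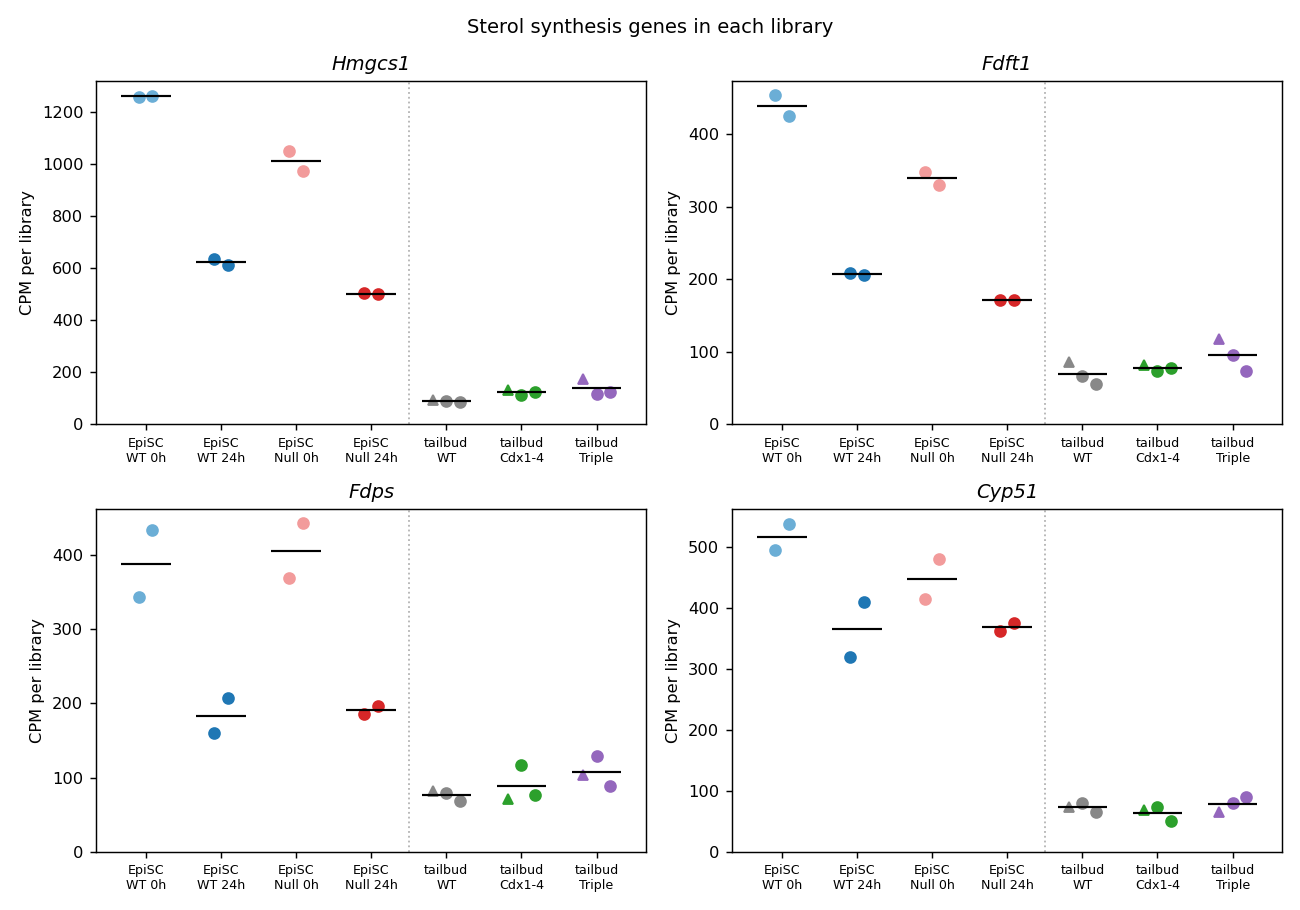
CPM of Hmgcs1, Fdft1, Fdps and Cyp51 in every library by group; points are libraries (triangles: column named green), bars are group means, and the dotted line separates the EpiSC and tailbud tables, which were normalised apart. Hmgcs1 drops from 1259 and 1260 CPM to 633 and 613 CPM in WT and lies between 85.9 and 174 CPM in tailbuds.

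Steps of the pathway that are not in the list also held genes that fell. Among 12 tested genes of other sterol synthesis steps, 4 fell and 1 rose in WT, and 5 fell and 1 rose in Null, with medians of -0.22 and -0.44. Over all genes 8.63% fell and 8.19% rose in WT and 9.44% and 9.18% in Null. Sc4mol (also Msmo1), a methyl sterol oxidase, went from 619.8 and 727 CPM to 249 and 331 CPM in WT and from 621 and 694 CPM to 232 and 244 CPM in Null. Its 24h libraries held less than any 0h library, by 1.23 ± 0.12 (edgeR adjusted p = 7.21e-10) and 1.46 ± 0.12 (2.48e-11). Acat2, which joins acetyl-CoA units, also fell in both, by 0.40 ± 0.10 in WT (edgeR adjusted p = 0.00436) and by 0.58 ± 0.10 in Null (6.55e-05).

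Of 12 tested genes that process or assist Srebf proteins, 0 were called in WT (1 at an unadjusted p below 0.05), where 16.8% of all genes were. In Null 1 fell, where 9.44% of all genes did: Sp1, by 0.43 ± 0.12 (edgeR adjusted p = 0.0097). Of 15 tested genes of cholesterol uptake, transport and efflux, 5 rose and 1 fell in WT, where 8.19% of all genes rose and 8.63% fell. In Null 4 rose and 1 fell, where 9.18% and 9.44% did. Npc2, which carries cholesterol out of lysosomes, rose from 278 and 294 CPM to 608 and 566 CPM in WT and from 234 and 228 CPM to 548 and 457 CPM in Null, by 1.04 ± 0.11 (edgeR adjusted p = 4.59e-09) and 1.13 ± 0.11 (2.17e-09). Vldlr, a lipoprotein receptor, rose by 1.38 ± 0.29 (edgeR adjusted p = 0.000731) and 1.27 ± 0.34 (0.00626).

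Between the genotypes the summed sterol branch was lower in Null, without overlap at either time. The Null mean came to 87.7% of the WT mean at 0h and 94.8% at 24h. Single members went both ways, with 8 positive and 9 negative differences at 0h and 10 and 7 at 24h. At 0h 2 of 17 members were lower in Null and 0 higher, where 3.35% of all tested genes were lower, 3.32% higher and 6.67% called in all. At 24h 1 of 17 was lower and 0 higher, where 4.35% of all genes were lower, 3.7% higher and 8.05% called in all. At an unadjusted p below 0.05 by edgeR there were 2 at 0h and 6 at 24h. Hmgcs1 was lower in both Null groups, by 0.32 ± 0.09 at 0h (edgeR adjusted p = 0.0334) and by 0.31 ± 0.10 at 24h (0.0379), and the libraries of the genotypes did not overlap at either time. Fdft1 was lower in Null at 0h by 0.37 ± 0.11 (edgeR adjusted p = 0.0301). The 0h calls were both lost when any one of the 4 libraries at 0h was left out (0.0989 to 0.27 for Hmgcs1, 0.0829 to 0.209 for Fdft1), or either Null library at 24h (0.0692 and 0.068 for Hmgcs1, 0.0533 and 0.0528 for Fdft1), and that of Fdft1 also with DESeq2 (0.107). The 24h call of Hmgcs1 was lost without WT 24h replicate 1 (0.159), without either Null library at 24h (0.177 and 0.22) and in a fit of the compared groups only (0.0545). The test of whether the 24h response itself differed between genotypes called 0 of 17 sterol members by edgeR (1 at an unadjusted p below 0.05) and by DESeq2, where edgeR called 0.567% of all genes.

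In the fatty acid branch most members called at 24h fell, and Elovl1 alone rose. Of 14 differences, 12 were negative and 2 positive in WT, and 11 and 3 in Null. In WT cells 1 of 14 rose and 3 fell, where 8.19% of all genes rose and 8.63% fell, with a median of -0.20 against -0.0083 over all genes. In Null cells 1 rose and 6 fell, where 9.18% and 9.44% did, with a median of -0.43 against 0.01. The 24h libraries all lay below the 0h libraries for 8 of 14 members in WT and 9 of 14 in Null (27.1% and 28.7% of all genes), and all above for 1 and 3 (26.8% and 29.1%). The summed branch was 5141 and 5043 CPM at 0h and 5064 and 4586 CPM at 24h in WT, where the groups overlapped. In Null it was 4611 and 4627 CPM and 4042 and 3825 CPM, with the 24h mean at 85.1% of the 0h mean and no overlap. All 3 members that fell in WT were among the 6 that fell in Null.

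Of the genes that make palmitate, 1 was called. Acly and Acaca, the enzymes that supply acetyl-CoA and malonyl-CoA, were called in no comparison, and Acly lay between 289 and 377 CPM in every EpiSC library. Fasn, fatty acid synthase, was at 261 and 236 CPM and 237 and 203 CPM in WT and at 293 and 228 CPM and 221 and 169 CPM in Null. It differed by -0.17 ± 0.13 in WT (edgeR adjusted p = 0.446) and fell by 0.42 ± 0.14 in Null (0.0291), a call that was lost without Null 0h replicate 1 (0.502), without Null 24h replicate 2 (0.37) and with DESeq2 (0.13). Srebf1 was low, at 15.4 to 27.3 CPM, and was not called.

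Among the elongases, which set the chain length, 1 rose and 2 fell. Elovl6, which extends palmitate, was at 116 and 123 CPM and 68.2 and 71.4 CPM in WT and at 121 and 124 CPM and 76.3 and 78.2 CPM in Null. It fell in both, by 0.78 ± 0.14 (edgeR adjusted p = 0.000106) and 0.67 ± 0.15 (0.0011), with every 24h library below every 0h library. Elovl5, which extends polyunsaturated chains, was at 278 and 240.3 CPM and 184 and 214 CPM in WT and at 213 and 220.5 CPM and 170.5 and 149 CPM in Null. Its falls of 0.39 ± 0.12 (edgeR adjusted p = 0.0217) and 0.43 ± 0.13 (0.0168) rested on few libraries: the WT call was lost with DESeq2 (0.143) and without WT 0h replicate 1 (0.265) or WT 24h replicate 1 (0.283), the Null call with DESeq2 (0.0738) and without Null 0h replicate 1 (0.0729), Null 0h replicate 2 (0.0948) or Null 24h replicate 2 (0.176).

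Elovl1, the elongase of very long saturated chains, was at 57.3 and 55.8 CPM and 79.7 and 93.1 CPM in WT and at 49.3 and 55.1 CPM and 70.4 and 76.2 CPM in Null. Each 24h library was above each 0h library, with a rise of 0.60 ± 0.16 in WT (edgeR adjusted p = 0.00722) and 0.49 ± 0.18 in Null (0.0484). The WT call was lost with DESeq2 (0.0952) and without either WT library at 0h (0.0504 and 0.0632), and the Null call under 8 of 13 alternatives, up to 0.309 without Null 0h replicate 1. In RefSeq Elovl1 overlaps Cdc20, a cell cycle gene, which differed by -0.27 ± 0.16 in WT (edgeR adjusted p = 0.274) and fell by 0.54 ± 0.16 in Null (0.0158).

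With all libraries, no desaturase response to the 24h treatment was called. Scd2, the stearoyl-CoA desaturase with the most counts of the branch, lay between 1579 and 2352 CPM in all 8 EpiSC libraries. It was called in none of the 8 comparisons by the main edgeR fit (all libraries, filtered, no block). Scd1, its close relative, differed by genotype: WT libraries were at 103 and 117 CPM at 0h and 88.8 and 81.0 CPM at 24h, Null libraries at 186 and 185 CPM and 159.6 and 189 CPM. All 4 Null libraries were above all 4 WT libraries, by 0.75 ± 0.14 at 0h (edgeR adjusted p = 0.00046) and 1.02 ± 0.14 at 24h (3.04e-06). Fads1 and Fads2, which act on polyunsaturated chains, were not called, with Fads1 at -0.36 ± 0.11 (edgeR adjusted p = 0.0503) and Scd2 at -0.29 ± 0.09 (0.0548) between genotypes at 0h. Both passed at 0h without a filter on low counts (edgeR adjusted p = 0.0342 for Fads1 and 0.0269 for Scd2), without WT 24h replicate 1 (0.0313 and 0.0323) and without WT 24h replicate 2 (0.0316 and 0.0321). These 2 libraries enter the 0h comparison through the shared estimate of spread. With a block for replicate number both also passed at 0h (edgeR adjusted p = 0.0108 for Fads1 and 0.00736 for Scd2). Fads1 passed there too in a fit of the compared groups only (0.0417). Between genotypes at 24h, Scd2 passed with the block (0.00989) and without the filter (0.0447). Without WT 24h replicate 2, Scd2 also passed in WT at 24h against 0h (0.0474) and between genotypes at 24h (0.00852).

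Acot7 and Fabp5 were the 2 members whose 24h response differed between the genotypes. Acot7, a thioesterase that releases fatty acids from acyl-CoA, was at 290.1 and 302 CPM at 0h and 283 and 223 CPM at 24h in WT and at 331 and 333 CPM and 157 and 162 CPM in Null. The 24h libraries were the lower ones in both genotypes. The WT difference of -0.21 ± 0.12 did not pass (edgeR adjusted p = 0.235), Null cells fell by 1.06 ± 0.12 (5.36e-08), and the response of Null minus that of WT was -0.84 ± 0.17 (0.0121). That last value passed with DESeq2, but not without WT 24h replicate 1 (0.0761), Null 24h replicate 1 (0.074), WT 0h replicate 1 (0.0619) or Null 0h replicate 1 (0.0504). At 24h Acot7 was lower in Null than in WT by 0.68 ± 0.12 (edgeR adjusted p = 0.000348).

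Fabp5, a fatty acid carrier, was at 482 and 477 CPM and 283 and 335 CPM in WT and at 721 and 757 CPM and 260.2 and 273 CPM in Null. It was highest in Null cells at 0h, 0.62 ± 0.10 above WT (edgeR adjusted p = 0.000135), and fell in both, by 0.64 ± 0.11 in WT (2.8e-05) and 1.47 ± 0.11 in Null (1.18e-12). Its difference in response was -0.83 ± 0.15 (edgeR adjusted p = 0.0039, and at most 0.0436 over 12 alternatives). At 24h the genotypes differed by -0.21 ± 0.11 (0.284), which did not pass. The sum of the 3 mature neural markers was 166 to 174 CPM at 0h and 69.5 to 81.3 CPM at 24h in Null (2 of 2 tested fell). In WT it was 176 to 179 CPM and 142 to 168 CPM (0 of 2 called). Of the 2 tested markers, 1 differed in response, where 0.567% of all genes did. Other marker lists also held such genes. Of 8 streak and tailbud markers 2 were called, with the higher response in Null. Of 6 tested epiblast markers 1 was called, with the lower response in Null. Of 5 tested endoderm and 4 tested fibroblast markers 0 were called. The part of all these markers in the responses of Acot7 and Fabp5 was not tested.

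**Figure D4:**
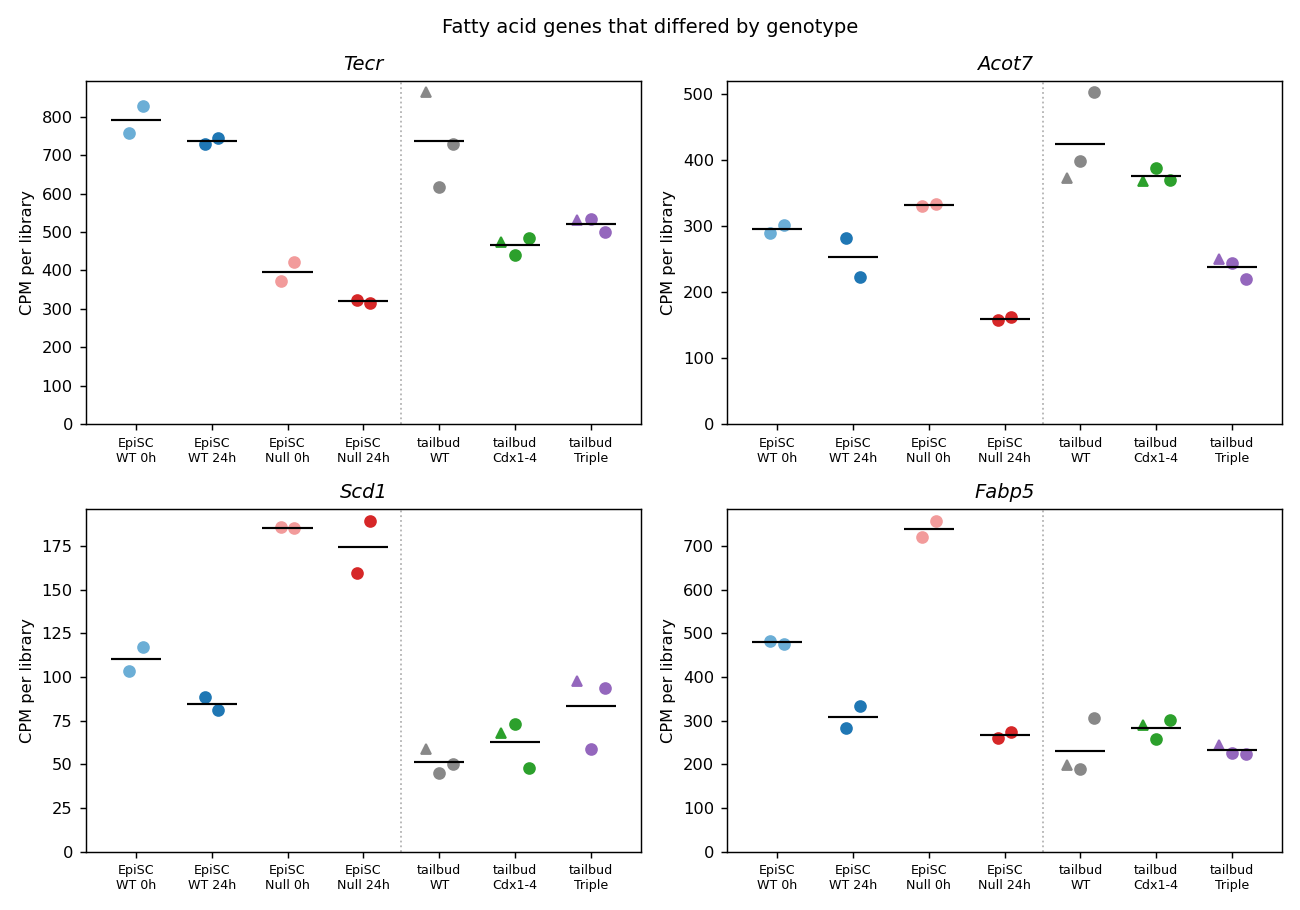
CPM of Tecr, Acot7, Scd1 and Fabp5 in every library by group; points are libraries (triangles: column named green), bars are group means, and the dotted line separates the EpiSC and tailbud tables, which were normalised apart. Tecr lies between 316 and 422 CPM in the Null libraries and between 730.2 and 827 CPM in the WT EpiSC libraries, and Acot7 is lowest in Null cells at 24h and, among tailbuds, in Triple.

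Tecr, the reductase that completes each elongation cycle of very long fatty acids, had the largest genotype difference of the 31 members in EpiSCs at both times. Tecr was singled out because it differed by genotype in these same cells and tailbuds, so its p-values and ranks give no independent support. It lies on chromosome 8 (GRCm38, 83571698 to 83594491, minus strand), where RefSeq also places D830024N08Rik and Gm51541 over it. WT libraries were at 758 and 827 CPM at 0h and 730.2 and 744 CPM at 24h, Null libraries at 372 and 422 CPM and 322 and 316 CPM. Every Null library was below every WT library; the Null mean was 50.1% of the WT mean at 0h and 43.3% at 24h. The Null libraries were lower by 1.00 ± 0.10 (SE, n = 2; edgeR adjusted p = 2.54e-08) and 1.21 ± 0.10 (3.43e-10), ranks 16 and 9 by p among 9703 tested genes, and both passed under all 13 alternatives.

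With the 24h treatment Tecr differed by -0.10 ± 0.10 in WT (edgeR adjusted p = 0.542) and fell by 0.31 ± 0.11 in Null (0.0396), a call that was lost under 5 of 13 alternatives: with DESeq2 (0.0907), without a filter on low counts (0.0694), without Null 0h replicate 2 (0.331) and without either Null library at 24h (0.145 and 0.18). The difference between these responses, -0.21 ± 0.15, did not pass (edgeR adjusted p = 0.698).

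In tailbuds Tecr was at 866, 617 and 730.1 CPM in WT, 474, 441 and 485 CPM in Cdx1-4 and 531, 535 and 501 CPM in Triple (libraries green-1, blue-1 and blue-2 in each). All 6 mutant libraries were below all 3 WT libraries, with means at 63.3% of WT in Cdx1-4 and 70.8% in Triple. Tecr was lower by 0.68 ± 0.12 in Cdx1-4 (SE, n = 3; edgeR adjusted p = 0.000826) and by 0.51 ± 0.12 in Triple (0.00586), and both comparisons use the same WT libraries. These calls rest on the WT library green-1, the highest of the 3: without it the differences were -0.53 (edgeR adjusted p = 0.093) and -0.38 (0.185), and among the blue libraries alone -0.54 (0.336) and -0.38 (0.332). Triple and Cdx1-4 differed by 0.16 ± 0.12 (edgeR adjusted p = 0.696). In order of level the tailbud groups ran WT, Triple, Cdx1-4, and the difference between Triple and Cdx1-4 did not pass.

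No tested gene around Tecr was called between genotypes. Of the 5 nearest genes on each side that are in the EpiSC table, 7 were tested and 0 were called between genotypes at 0h or 24h by edgeR, where 6.67% and 8.05% of all genes were; at an unadjusted p below 0.05 there were 1 and 2. Ndufb7, a subunit of mitochondrial complex I whose 3′ end lies 75 bases from that of Tecr on the opposite strand, differed by 0.12 ± 0.14 at 0h (edgeR adjusted p = 0.698) and 0.08 ± 0.13 at 24h (0.801). Gipc1, which came nearest to a call, differed by -0.29 ± 0.14 (edgeR adjusted p = 0.221) and -0.38 ± 0.14 (0.0849). In tailbuds 5 of them were tested and 0 called by edgeR (0 at an unadjusted p below 0.05), with differences from -0.14 to 0.41 in Triple and Cdx1-4 against WT. Not tested in EpiSCs were Clgn, Ucp1 and Cd97, with 2, 2 and 64 counts over all libraries. At 0h Cd97 was at 0.904 to 3.16 CPM in Null and 4.82 to 5.69 CPM in WT. At 24h it was at 2.97 to 3.34 CPM in Null and 5.57 to 7.65 CPM in WT.

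Between genotypes 3 of 14 fatty acid members were called at each time. At 0h 2 were higher in Null (Scd1, Fabp5) and 1 lower (Tecr), where 3.32% of all genes were higher and 3.35% lower. At 24h 1 was higher (Scd1) and 2 lower (Tecr, Acot7), where 3.7% and 4.35% were. Markers also differed between the same libraries at 0h. Epiblast markers were higher in Null (4 of 6 tested) and the summed fibroblast markers lower (1 of 4 tested called). The summed streak and tailbud markers were lower too, at 37.0 to 49.9 CPM in Null and 100.1 to 109 CPM in WT (1 of 8 called). Of 5 tested endoderm markers, 2 were lower in Null and 0 higher, though their sums overlapped. The part of these markers in these counts and those of the sterol branch was not tested. At 24h the summed fibroblast markers were 86.7 to 108 CPM in Null and 115 to 149 CPM in WT, and the summed epiblast markers 317 to 364 CPM and 275 to 285 CPM. Of 6 epiblast markers tested, 3 were higher in Null and 1 lower. The summed streak and tailbud markers were 1428 to 1482 CPM in Null and 951 to 1277 CPM in WT. Of 8 tested, 1 was higher in Null and 0 lower. The summed mature neural markers were 69.5 to 81.3 CPM in Null and 142 to 168 CPM in WT at 24h, with 1 of 2 tested lower in Null. The part of these markers was not tested either.

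Other fatty acid genes of the pathway showed single changes. Of 22 tested genes of synthesis, elongation and activation, 3 rose and 4 fell at 24h in WT, where 16.8% of all genes changed, and 1 rose and 2 fell in Null, where 18.6% did, with medians of 0.03 and -0.0022. Acsl4, which activates arachidonate to its CoA form, fell from 163 and 130.4 CPM to 52.9 and 44.0 CPM in WT and from 226 and 218 CPM to 57.0 and 57.5 CPM in Null, by 1.57 ± 0.15 (edgeR adjusted p = 7.37e-10) and 1.95 ± 0.15 (3.8e-12). Ptplad1 (Hacd3), a dehydratase of the elongation cycle that precedes Tecr, rose by 1.30 ± 0.14 (edgeR adjusted p = 3.94e-09) and 0.77 ± 0.14 (0.000132). Fabp7, a carrier related to Fabp5, fell by 0.97 ± 0.14 (edgeR adjusted p = 4.85e-06) and 0.62 ± 0.16 (0.00567). Of 18 tested fatty acid oxidation genes, 1 rose and 1 fell in WT and 1 rose in Null, against the same shares; Acaa2, a thiolase, was the one that rose, by 0.73 ± 0.22 (edgeR adjusted p = 0.0153) and 0.94 ± 0.23 (0.00344).

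In tailbuds no sterol member was called. Of 17 members 11 passed the filter on low counts, and edgeR called 0 in Triple against WT, in Cdx1-4 against WT and in Triple against Cdx1-4, where it called 2.9%, 0.133% and 2.02% of 6003 genes; at an unadjusted p below 0.05 there were 3, 2 and 1, and DESeq2 called 0 in each. The summed branch was 568, 567 and 563 CPM in WT, 544, 649.6 and 578 CPM in Cdx1-4 and 800.2, 725 and 647 CPM in Triple. Triple libraries were all above WT, with the mean at 127.9% of the WT mean, whereas Cdx1-4 overlapped WT. In Triple against WT 9 of the 11 tested members had positive differences and 2 negative ones, with a median of 0.30 against -0.0025 over all genes. For 2 of 11 all Triple libraries lay above all WT libraries and for 0 below, where 8.5% and 7.95% of all genes did so. Hmgcs1 was at 91.6, 87.0 and 85.9 CPM in WT, 130.1, 113 and 123 CPM in Cdx1-4 and 174, 115 and 121 CPM in Triple. Its WT libraries were the lowest 3, with differences of 0.60 ± 0.19 in Triple (edgeR adjusted p = 0.0807) and 0.46 ± 0.19 in Cdx1-4 (0.526), neither of which passed. The sterol sums of EpiSCs, 1873 to 3637 CPM, stand beside these of 544 to 800.2 CPM only as values, since the tables were normalised apart.

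Sterol genes outside the list were called in Triple. Of 10 tested, 2 were higher in Triple than in WT, where 1.62% of all genes were, and 0 in Cdx1-4 than in WT, where 0.0333% were. Sc4mol was at 50.1, 47.5 and 55.6 CPM in WT, 66.4, 70.5 and 58.2 CPM in Cdx1-4 and 114, 109.9 and 113 CPM in Triple. The 3 Triple libraries stood above the other 6, by 1.14 ± 0.21 against WT (edgeR adjusted p = 0.000225) and 0.77 ± 0.19 against Cdx1-4 (0.014). Acat2 was at 233, 277 and 253 CPM, 256, 242 and 268 CPM and 362, 374 and 349 CPM in the same order of groups. It was likewise highest in the 3 Triple libraries, by 0.52 ± 0.13 (edgeR adjusted p = 0.0167) and 0.50 ± 0.13 (0.0234). Summed streak and tailbud markers, which include Cdx2, were 348 to 400.5 CPM in Triple, 701 to 842 CPM in Cdx1-4 and 738 to 896 CPM in WT. Summed endoderm markers were 1260.2 to 1499 CPM, 651 to 1372 CPM and 902 to 1337 CPM in the same order. The part of these markers in the differences above was not tested.

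**Figure D5:**
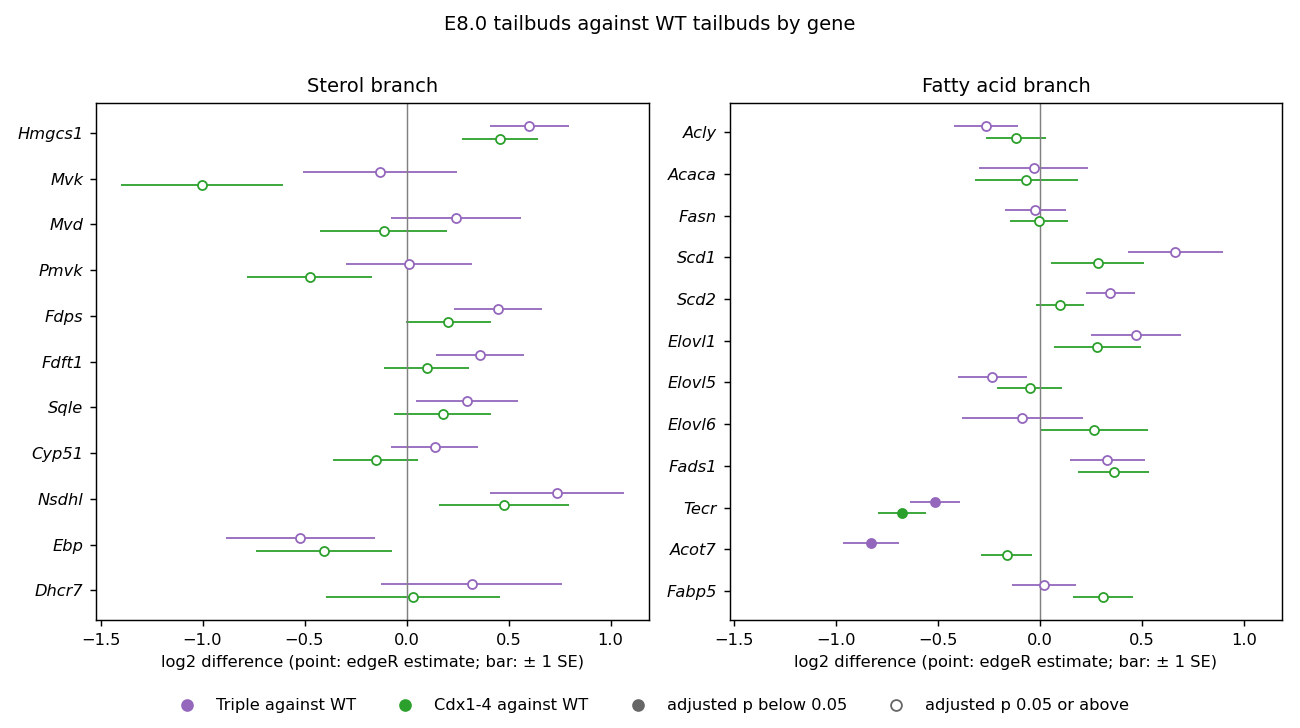
log2 difference from WT tailbuds for the 11 sterol branch genes (left) and 12 fatty acid branch genes (right) that passed the filter on low counts, in Triple (purple) and Cdx1-4 (green); points are edgeR estimates, bars ± 1 SE, filled points passed an adjusted p of 0.05, and both comparisons share the WT libraries. The filled points are Tecr in both (-0.51 and -0.68) and Acot7 in Triple (-0.83).

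In the fatty acid branch of tailbuds 12 of 14 members were tested. In Triple against WT 2 were lower, Tecr and Acot7, in Cdx1-4 against WT 1, Tecr, and in Triple against Cdx1-4 1, Acot7; none was higher. Over all genes 1.28%, 0.1% and 0.8% were lower and 1.62%, 0.0333% and 1.22% higher in these comparisons. Acot7 was at 374, 398 and 503 CPM in WT, 369, 388 and 370.2 CPM in Cdx1-4 and 250.4, 244 and 220.2 CPM in Triple. All Triple libraries were below the other 6, by 0.83 ± 0.14 against WT (edgeR adjusted p = 4.45e-05, and at most 0.00208 over 15 alternatives) and 0.67 ± 0.14 against Cdx1-4 (0.00167, and at most 0.043). Cdx1-4 differed from WT by -0.16 ± 0.13 (0.822). Scd1, higher in Null cells, was at 58.6, 44.8 and 50.5 CPM in WT, 67.8, 73.3 and 47.8 CPM in Cdx1-4 and 98.0, 58.6 and 93.6 CPM in Triple, and Fabp5 at 199, 189.9 and 306 CPM, 290.1, 258 and 302 CPM and 245, 227 and 224 CPM. Neither was called: Scd1 differed by 0.66 ± 0.23 in Triple (edgeR adjusted p = 0.137) and Fabp5 overlapped between WT and both mutants.

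The 8 members that did not pass the filter in tailbuds were Idi1, Lss, Hsd17b7, Sc5d, Insig1 and Srebf2 of the sterol branch and Srebf1 and Fads2 of the fatty acid branch. They lay between 0 and 27.2 CPM in every tailbud library, where 1 count came to 1.22 to 2.72 CPM, and were not tested. Insig1 was at 7.33, 5.27 and 5.05 CPM in WT, 9.49, 9.68 and 4.16 CPM in Cdx1-4 and 21.8, 12.2 and 15.6 CPM in Triple. In the same order of groups, Hsd17b7 was at 8.55, 7.91 and 10.1 CPM, 5.42, 9.68 and 18.7 CPM and 27.2, 14.7 and 12.1 CPM. The Triple libraries lay above those of WT for both genes, and above those of Cdx1-4 for Insig1, on 5 to 10 counts per Triple library. This pair was chosen after its values were seen. Of the other untested members, Idi1, Srebf2 and Srebf1 had lower mean CPM in Triple than in WT, and Lss, Sc5d and Fads2 higher. How often genes with so few counts separate in this way was not tested. Fads2 was at 0 in 1 WT library (blue-1). Of the 31 members, 19 were called in at least 1 of the 8 comparisons over both tables by the main edgeR fit. The 12 called in none by that fit include Srebf1, Srebf2, Acly, Acaca and Scd2.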

How the data were processed

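Transcripts were counted by CEL-seq in 8 EpiSC and 9 tailbud libraries. The deposited tables hold whole-number counts per gene symbol, made by the authors; the submitters' processing notes name the build mm10, and the aligner and the counting rule, strand included, are not given in the sources used here. Each table was filtered (filterByExpr), scaled by TMM and fitted with edgeR 4.0.16 (quasi-likelihood, robust, 1 mean per group, no block) in R 4.3.3, with Benjamini-Hochberg adjustment over all tested genes and a threshold of 0.05; CPM uses TMM-scaled totals. The tables were never compared by a test. The scripts were tested on simulated data. Replicates differed beyond sampling noise. Columns were matched to groups by name; 1 tailbud column spelled Cd4_1-4 was read as Cdx1-4, and the names green and blue are not explained. The members and gene lists were chosen with earlier results of these data known. Members called in any comparison with a mean of at least 10 CPM are given per library, with Tecr in any case; genes outside the list are named only if called, at most 4 per list, and so are the neighbours of Tecr, genes that overlap members, and the Cdx genes. Alternatives were DESeq2 1.42.0, RLE scaling, no filter, each library left out, a replicate block, compared groups only and the blue tailbud libraries only. The ChIP-seq and ATAC-seq peak and signal files were not used here. Some genes of the lists outside the 31 members are not reported here.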

Additional observations from a re-analysis of the deposited data

Results flagged for a closer look

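For 2 of the 31 members the 24h response of EpiSCs differed between the genotypes by a test of that difference. The response of Null minus that of WT was -0.84 on the log2 scale for Acot7 (SE 0.17, n = 2 per group; edgeR adjusted p = 0.0121), with the 24h libraries lower in both genotypes. For Fabp5 it was -0.83 (SE 0.15; edgeR adjusted p = 0.0039), again with both genotypes lower at 24h and Null cells higher at 0h. Over all genes the same test called 0.567%.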

How the results depend on the processing

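Of 46 calls of members, all 46 kept their direction under every alternative run and 28 stayed below the threshold in each. DESeq2 called fewer genes: 784 in WT at 24h against 0h and 953 in Null (10 members), 250 between genotypes at 0h and 264 at 24h, 24 for the difference in response, 91 in Triple against WT, 4 in Cdx1-4 against WT and 55 in Triple against Cdx1-4. Calls gained under an alternative came to 15, for Scd2, Fads1, Cyp51 and Insig1 in EpiSCs, with adjusted p from 0.00736 to 0.0483. Among left-out libraries, Scd2 was called in WT at 24h without WT 24h replicate 2 (0.0474) and between genotypes at 24h without the same library (0.00852), and Insig1 at 24h without WT 24h replicate 1 (0.0483). For the difference in response edgeR called 93 genes without a filter on low counts. With the blue tailbud libraries only, it called 74 genes and 1 member in Triple against WT, 0 members in Cdx1-4 against WT and 38 genes in Triple against Cdx1-4. Leaving out each library in turn gave 1034 to 1693 genes and 12 to 16 members in WT at 24h, 1121 to 1975 and 11 to 16 in Null, 326 to 780 and 3 to 7 between genotypes at 0h, 357 to 813 and 3 to 5 at 24h, and 18 to 82 and 1 to 2 for the difference in response. In tailbuds it gave 125 to 193 genes and 1 to 2 members for Triple against WT, 6 to 11 and 0 to 1 for Cdx1-4 against WT, and 70 to 132 and 1 for Triple against Cdx1-4. The cause of these shifts was not tested, beyond the fewer libraries where some were left out. Where a group was left with 1 library, that library was assumed to vary like the other groups.

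Same-numbered EpiSC libraries deviated together only weakly, with correlations that were all positive (0.0073 to 0.0868). In tailbuds the correlations took both signs (-0.091 to 0.0514). These values were small, and the numbers were not taken to pair libraries. With the replicate block the difference in response was called for 123 genes against 55, the block also called Scd2 (0.00736) and Fads1 (0.0108) between genotypes at 0h, Scd2 at 24h (0.00989) and Cyp51 in Null at 24h against 0h (0.0312), and no other count of genes or members called moved by over 1.5 times. In tailbuds depth limited the test to 23 of 31 members.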
